A study of Homo sapiens with 4 samples.

Results

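Metallothioneins were followed as 7 genes of the 62443 in the expression table: MT2A, MT1E, MT1F, MT1G, MT1M and MT1X, which encode metallothioneins, and MTF1, which encodes the transcription factor that switches them on. They were chosen by gene symbol, through the Ensembl identifiers of the table. The samples are 4 mRNA libraries of EA.hy 926 cells, a human hybrid line whose parents are umbilical vein endothelium and a lung carcinoma line, and so not a primary endothelium. In 2 libraries the cells overexpressed the microRNA miR-187 and in 2 they received the control miR-NC, and the question of the study was how miR-187 changes the transcriptome of endothelial cells. Expression was given as FPKM, the fragments of a gene scaled by its transcript length and by the fragments of its library. The methods describe lipid transfection of miRNA mimics with collection at a single time, without naming these libraries, and the sources used here do not give their dose. Whether the replicates are separate cultures is not stated, and the p-values therefore speak only of the spread among 4 libraries, which could be technical.

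Metallothioneins are small proteins that bind zinc, copper and cadmium through their many cysteines, buffer free zinc and scavenge oxidants. Zinc set free in the cell binds MTF1, which then binds metal response elements in front of the metallothionein genes and of the zinc exporter gene SLC30A1. MT2A is the main form in most human cells and also answers to glucocorticoids, while the MT1 genes are close copies that differ widely between tissues in which of them are used.

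MT2A was the one member that passed the test, and it was higher with miR-187. It rose from 6069 ± 4.93 to 7785 ± 238 FPKM (SD, n = 2), a gain of 28.3%, in the values as deposited. The call was lost after 2 of the 3 rescalings of the libraries, although the direction held. MT1X and MT1E were expressed at far lower levels, and their groups overlapped. MT1M, MT1F and MT1G were at or near 0, and MTF1 stood below 1 FPKM in every library and was not tested. Of the 7 members, 3 were above the expression filter and tested, and the rest are given as values.

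The sequences below are the microRNAs compared, since the direction of every change is read against them. The mature human miR-187-3p lies on the minus strand at chr18:35904835-35904856 (RefSeq, GRCh38.p14), and the mimic listed among the study's oligonucleotides has the same sequence. Capitals mark bases 2 to 8, which in miR-187 are the seed that pairs with target mRNAs. The control mimic is shown beside it with the same bases in capitals, and matches to the control were not searched.
hsa-miR-187-3p: uCGUGUCUuguguugcagccgg
miR-NC mimic: uUGUACUAcacaaaaguacug
None of the 24 annotated transcripts of the 7 members (GENCODE 29) held the 7-base match to the miR-187 seed, AGACACG, or the 7-base match GACACGA. The shorter 6-base match, GACACG, was also found in 0 of the 24 transcripts, including the long MTF1 transcript of 7972 bases. A lack of these letters in annotated transcripts says nothing of other kinds of pairing.

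The 6 metallothionein genes lie on chromosome 16, among other family genes of the cluster from MT4 to MT1X at chr16:56565073-56684196 (RefSeq, GRCh38). MT2A spans chr16:56608584-56609497 and MT1X chr16:56682470-56684196, both on the plus strand with 3 exons. Each of the 6 has a coding part of 186 bases, in which 20 of the 61 amino acid codons are for cysteine. Their coding sequences were 88.7% to 95.2% identical over the 15 pairs. How close these copies are bears on how reads can be assigned, so the first 60 coding bases are shown (GENCODE 29, GRCh38), with bases that differ from MT2A in capitals. The last line is MT2P1, a processed pseudogene of this family on chromosome 4.
MT2A: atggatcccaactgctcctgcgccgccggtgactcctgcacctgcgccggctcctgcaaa
MT1X: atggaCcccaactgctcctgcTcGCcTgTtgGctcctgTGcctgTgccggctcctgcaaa
MT1E: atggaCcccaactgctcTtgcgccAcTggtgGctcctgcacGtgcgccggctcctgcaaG
MT1M: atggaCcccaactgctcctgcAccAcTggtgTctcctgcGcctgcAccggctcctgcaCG
MT1F: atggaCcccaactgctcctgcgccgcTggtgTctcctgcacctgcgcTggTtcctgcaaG
MT1G: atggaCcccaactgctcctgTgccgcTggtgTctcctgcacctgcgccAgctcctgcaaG
MT2P1: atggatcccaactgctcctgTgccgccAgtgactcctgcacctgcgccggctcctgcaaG
MT1X differed from MT2A at 10 of these 60 positions, MT1E at 7 and MT2P1 at 3. Of all stretches of 50 bases in the main MT2A transcript, 4.88% occurred unchanged in a transcript of another gene, among them MT1X, MT1G and MT2P1. For MT1E the share was 5.34%. For MT1X it was 45.1%, part of it shared with the transcript AC026461.1. At 150 bases, no stretch of MT2A or MT1E was shared, and 5.65% of those of MT1X were, all with AC026461.1. A stretch of 50 bases from a shared part can thus be placed on more than 1 copy. At 150 bases this held only for MT1X with AC026461.1. The read length is not given here, so how far the levels of the minor copies carry that uncertainty was not tested.

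RefSeq promoter sequences were matched for 3 members, MT2A, MT1X and MTF1. The core of the metal response element was searched as TGCACNC or TGCGCNC, on both strands, in the 250 bases before the start. The promoters of MT2A and MT1X are shown because they belong to the most abundant members, and that of MT1H because this gene, listed at 0 FPKM in every library, stands in the same cluster. Capitals mark the matches, which did not overlap each other. MT2A lies at chr16:56608334-56608583, MT1X at chr16:56682220-56682469 and MT1H at chr16:56669564-56669813, all on the plus strand of GRCh38.p14.
MT2A: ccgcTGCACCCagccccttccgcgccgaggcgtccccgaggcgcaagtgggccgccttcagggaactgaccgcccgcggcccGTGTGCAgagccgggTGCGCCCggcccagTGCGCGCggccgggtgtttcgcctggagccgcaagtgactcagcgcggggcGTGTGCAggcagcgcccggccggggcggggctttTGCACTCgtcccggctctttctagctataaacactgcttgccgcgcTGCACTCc
MT1X: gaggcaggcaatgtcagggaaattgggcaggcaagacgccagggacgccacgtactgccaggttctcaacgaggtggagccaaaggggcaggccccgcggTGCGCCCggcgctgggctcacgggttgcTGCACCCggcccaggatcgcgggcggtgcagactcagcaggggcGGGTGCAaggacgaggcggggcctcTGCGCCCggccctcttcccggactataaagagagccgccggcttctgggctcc
MT1H: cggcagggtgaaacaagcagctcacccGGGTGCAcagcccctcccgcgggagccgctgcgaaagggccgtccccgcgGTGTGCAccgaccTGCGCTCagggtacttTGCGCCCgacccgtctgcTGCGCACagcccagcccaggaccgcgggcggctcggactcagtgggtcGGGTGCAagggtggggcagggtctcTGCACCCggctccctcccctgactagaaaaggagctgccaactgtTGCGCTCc
MT2A held 7 matches, 5 of them on the strand shown and 2 on the other. Its TATA box, the element TATAAA, stood at position -29, between matches that begin at -54 and -8. MT1X held 4 matches, its TATA box at -30, and MT1H held 8, with no TATAAA in the bases shown. Of 35116 promoters of the same length, 24.8% held at least 1 match, 0.370% held 4 or more and 0.0313% held 7 or more, which is 11 promoters. The promoter of MTF1 held 0. A match is a description of the sequence and not a binding site. MT1H, with more matches than MT2A, was listed at 0, and so were MT1B and MT4, which held 3 matches each. A relation between matches and level was not tested.

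MT2A (ENSG00000125148) encodes the main human metallothionein. Its level was 6066 FPKM in miR-NC replicate 1 and 6073 FPKM in miR-NC replicate 2. With miR-187 it was 7617 FPKM in replicate 1 and 7953 FPKM in replicate 2. Both miR-187 libraries were above both miR-NC libraries, and the miR-NC pair differed by less than the miR-187 pair. The log2 fold change on the log2(FPKM + 1) scale was 0.36 ± 0.07 (SE, limma, adjusted p = 0.00330). Among all 8196 tested genes, 122 were called higher with miR-187, which is 1.49%, and 2236 were called lower, which is 27.3%. The median log2 fold change of all tested genes was -0.39, and 97.1% of them lay below MT2A. Measured from that median, MT2A stood 0.75 higher on the log2 scale.

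**Figure D1:**
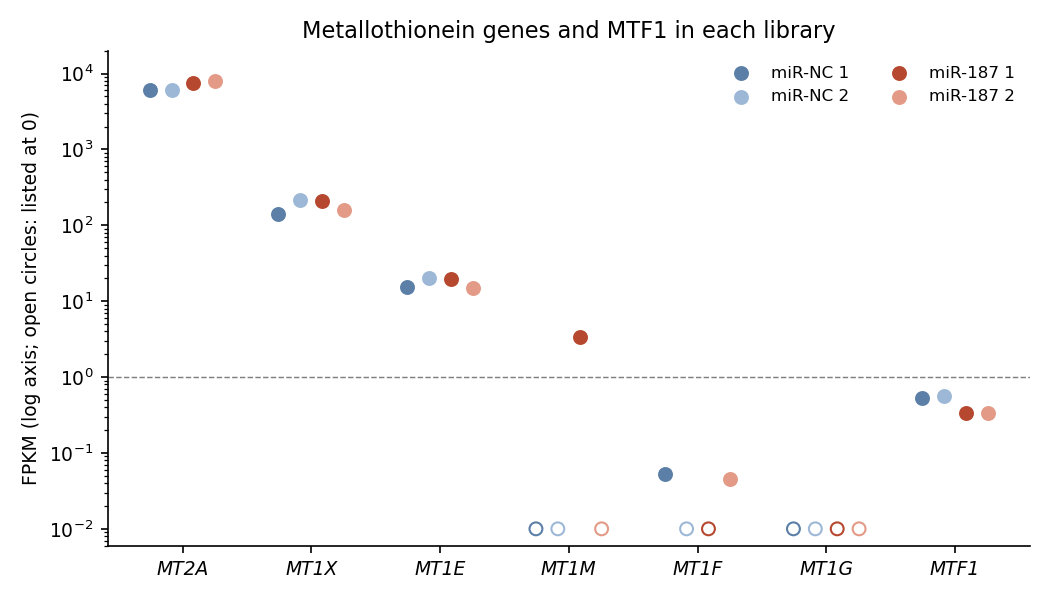
FPKM of the 7 members (log axis) in each of the 4 libraries, with open circles for genes listed at 0 and a dashed line at the filter of 1 FPKM. MT2A stands far above the other members in every library, and MT1M rises above the line in miR-187 replicate 1 only.

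MT2A was the 22nd most abundant gene in both miR-NC libraries, and the 19th and the 16th in the miR-187 libraries. It took 0.823% and 0.821% of all FPKM in the miR-NC libraries, and 0.998% and 1.06% in the miR-187 libraries. Abundant genes as a class stood above the rest. Of the 107 genes whose mean reached 1000 FPKM, 63 had a log2 fold change above 0, 30 were called higher and 14 lower. Their median log2 fold change was 0.08, and MT2A ranked 19 among them. The 100 most abundant genes of each library took 64.2% and 61.7% of all FPKM in the miR-NC libraries, and 69.8% and 70.2% in the miR-187 libraries. The part of this composition in the value of MT2A was not tested.

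**Figure D2:**
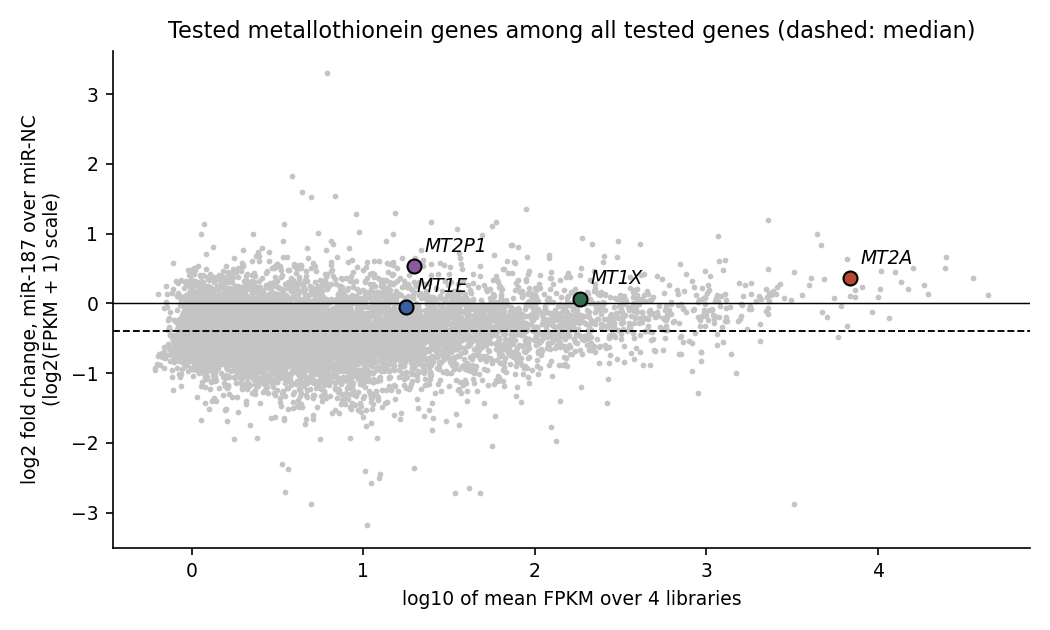
Log2 fold change (miR-187 over miR-NC, log2(FPKM + 1) scale) against the log10 mean FPKM of all 8196 tested genes in grey, with the metallothionein genes in colour and the median of -0.39 as a dashed line. MT2A, at 0.36, and its pseudogene MT2P1, at 0.53, lie furthest above the median of the 4, and MT1X and MT1E lie near 0, where 89.0% and 82.0% of tested genes are below them.

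Scaling the libraries by median-of-ratios factors, which sets the typical gene to no change, moved the median of all genes up by 0.38 to -0.01. The level of MT2A then read 5595 and 4639 in the miR-NC libraries, against 8834 and 9522 in the miR-187 libraries, in scaled FPKM. Its difference was larger, at 0.85 ± 0.27 (SE), and the gene did not pass (limma, adjusted p = 0.10). The 2 miR-NC libraries lay further apart than as deposited. The SE also draws on the spread of other genes of like level, so it is not the spread of MT2A alone. With this scaling 383 genes were called higher, which is 4.67%, and 303 lower, which is 3.7%, and none of the 3 tested members was called. MT2A also did not pass under quantile normalization, at 0.29 ± 0.07 (SE, adjusted p = 0.0648), or with no filter on low values (adjusted p = 0.161). Its log2 fold change stayed above 0 under each of these settings. In the 4 fits that left out 1 library it was 0.33 to 0.39, and each of these fits has 1 library left in a group.

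MT1X (ENSG00000187193), the second most abundant metallothionein here, read 142 and 218 FPKM in the miR-NC libraries. It read 212 and 160 FPKM in the miR-187 libraries. The 2 groups overlapped, with 1 high and 1 low library in each. The means were 180 ± 53.5 and 186 ± 36.4 FPKM (SD, n = 2), and the log2 fold change was 0.06 ± 0.18 (SE, adjusted p = 0.801). Of all tested genes, 89.0% lay below it, and 82.0% below MT1E. Leaving out a replicate 1 turned it, to -0.24 for that of miR-NC and -0.14 for that of miR-187. Leaving out a replicate 2 gave 0.37 for that of miR-NC and 0.26 for that of miR-187, so its direction rests on which libraries enter. After median-of-ratios scaling the groups no longer overlapped, at 131 and 167 in the miR-NC libraries, against 245 and 192 in the miR-187 libraries, and the difference of 0.55 ± 0.17 (SE) did not pass (adjusted p = 0.0937).

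MT1E (ENSG00000169715), another MT1 copy, read 15.6 and 20.5 FPKM with miR-NC. It read 19.7 and 15.01 FPKM with miR-187. Its high and low libraries were the same as those of MT1X. The log2 fold change was -0.05 ± 0.20 (SE, adjusted p = 0.854), and after median-of-ratios scaling it changed sign to 0.41 ± 0.14 (SE, adjusted p = 0.124). Leaving out either miR-NC replicate 2 or miR-187 replicate 2 also turned it, to 0.14 and 0.13.

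The ratio of MT1E to MT1X was steady across the libraries. MT1E stood at 10.9% and 9.41% of MT1X in the miR-NC libraries, and at 9.33% and 9.37% in the miR-187 libraries. The ratio of MT1X to MT2A varied more. MT1X was 2.35% and 3.59% of MT2A in the miR-NC libraries, and 2.78% and 2.01% in the miR-187 libraries. Multiplying a library by a factor leaves such ratios as they are. The groups overlapped, and an exact two-sided permutation test of the log2 ratio over the 4 libraries gave p = 0.67, where the smallest p that 2 against 2 allows is 0.33. MT2A passed the test and MT1X and MT1E did not, but a difference between their responses was not shown. With 4 ratios tested in this way, none can pass.

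**Figure D3:**
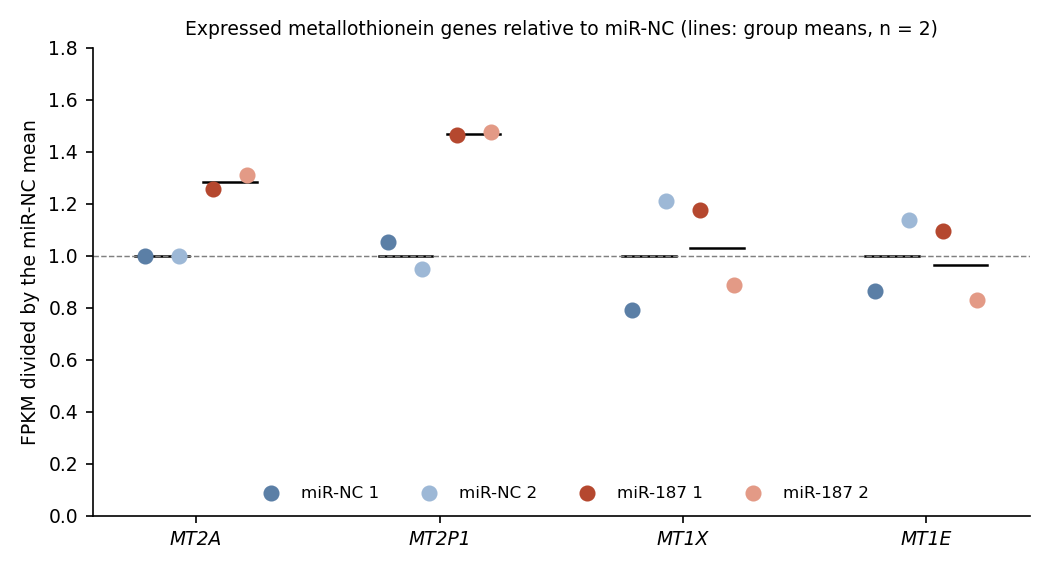
FPKM of the 4 tested metallothionein genes and pseudogenes in each library, divided by the miR-NC mean of the gene, with black lines for the group means (n = 2). MT2A and MT2P1 separate the groups, while MT1X and MT1E are high in miR-NC replicate 2 and miR-187 replicate 1 and low in the other libraries.

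Close copies were then read beside the members. The table holds 20 genes and pseudogenes of the MT1 to MT4 family, and 10 of the 14 that are not members were listed at 0 in every library. MT2P1 (ENSG00000162840) read 16.9 and 15.3 FPKM in the miR-NC libraries, against 23.6 and 23.8 FPKM in the miR-187 libraries. Both miR-187 libraries were above both miR-NC libraries, as for MT2A, and the difference was 0.53 ± 0.17 on the log2 scale (SE, adjusted p = 0.0327). It stood at 0.279% and 0.252% of the level of MT2A in the miR-NC libraries, and at 0.310% and 0.299% in the miR-187 libraries. Of the 50-base stretches of MT2P1, 15.7% were shared with other genes, MT2A among them, and 0 of those of 150 bases were. A processed pseudogene can take reads from its parent. Whether that happened here was not tested, so MT2P1 is not counted as a separate observation. The adjusted p was 0.0835 when miR-NC replicate 2 was left out, 0.207 when it was miR-187 replicate 1 and 0.239 when it was miR-187 replicate 2, so the call rests on all of these libraries. It was kept after median-of-ratios scaling (0.99 ± 0.15, adjusted p = 0.0209).

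MT1M read 3.34 FPKM in miR-187 replicate 1 and was listed at 0 in the other 3 libraries. The value rests on a single library, and the gene was not tested. MT1F was listed at 0.0522 FPKM in miR-NC replicate 1, at 0.0452 FPKM in miR-187 replicate 2 and at 0 in the others. MT1G was listed at 0 in all 4. Both read as next to nothing in either group. The pseudogene MT1P3, which shares 58.6% of its 50-base stretches with other genes, MT1M among them, read 0.292 and 0 FPKM in the miR-NC libraries, against 1.28 and 0.497 FPKM in the miR-187 libraries, its highest value in the library where MT1M was seen. MT1XP1 read 0.169 and 1.64 FPKM in the miR-NC libraries, against 0.605 and 0.401 FPKM in the miR-187 libraries. The brain form MT3 was at or below 0.144 FPKM in every library.

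The summed FPKM of the 6 metallothionein genes was 6224 and 6312 in the miR-NC libraries, against 7852 and 8129 in the miR-187 libraries. Between 96.2% and 97.8% of each sum came from MT2A, so the sum follows that gene. Its ratio of group means was 1.27, and it was 1.28 when every family gene and pseudogene was added, so adding the copies moved it little. After median-of-ratios scaling the ratio was 1.78.

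**Figure D4:**
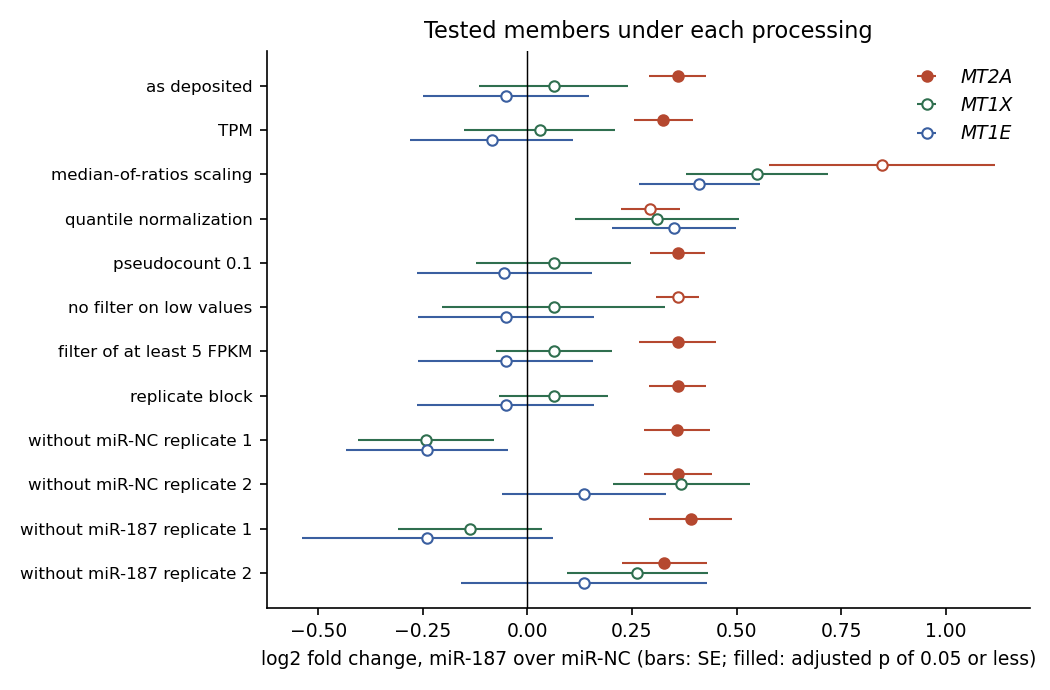
Log2 fold change (miR-187 over miR-NC) of the 3 tested members under each way of processing, with SE bars and filled symbols where the adjusted p was 0.05 or less. MT2A is above 0 in every row and open in 3 of them, and MT1X and MT1E are open throughout and change sign between rows.

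MTF1 (ENSG00000188786) encodes the zinc sensor that drives the family. It read 0.537 and 0.568 FPKM in the miR-NC libraries, against 0.332 and 0.337 FPKM in the miR-187 libraries. The groups did not overlap, and the miR-187 mean was 0.606 of the miR-NC mean. Lower values were common, as 85.2% of all tested genes lay below 0, with a median of -0.39. How many genes have groups that do not overlap was not counted, so this is not shown to be particular to MTF1. The gene lay below the filter of at least 1 FPKM in at least 2 libraries. In the fit without a filter its log2 fold change was -0.22 ± 0.16 (SE) and did not pass (adjusted p = 0.553). After median-of-ratios scaling it read 0.495 and 0.434 against 0.385 and 0.404, still apart, with a ratio of means of 0.849. A fall of MTF1 was not shown by a test.

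Other genes of metal handling were taken from lists. SLC30A1, a target of MTF1 that exports zinc from the cell, read 0.287 and 0.299 FPKM in the miR-NC libraries, against 0.223 and 0.191 FPKM in the miR-187 libraries, below the filter. Of the 10 SLC30 genes of zinc export, 2 were tested and 0 passed. They were SLC30A7, which loads zinc into the secretory pathway, at -0.37 ± 0.23 (SE, adjusted p = 0.229), and SLC30A9 at -0.50 ± 0.24 (SE, adjusted p = 0.122). Of the 14 SLC39 genes of zinc import, 9 were tested, 0 were higher and 4 lower, beside 27.3% lower over all tested genes, and their median log2 fold change of -0.39 was that of all tested genes. SLC39A1, the most abundant of them and an importer at the cell surface, fell from 61.3 ± 7.63 to 34.8 ± 2.16 FPKM (SD, n = 2). SLC39A13, an importer of inner membranes, fell from 20.04 ± 5.11 to 9.85 ± 0.364 FPKM (SD, n = 2). SLC39A4 fell by 0.63 and SLC39A10 by 0.68 on the log2 scale. After median-of-ratios scaling 0 of the 9 passed in either direction, and their median was -0.06. The count was 2 when miR-NC replicate 2 or either miR-187 library was left out, and SLC39A1 and SLC39A13 were called in all 4 of these fits.

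Genes of copper handling gave a like picture. Of 10 tested, 0 were higher and 6 lower, with a median of -0.52, beside 27.3% lower and a median of -0.39 over all tested genes. ATOX1, a copper chaperone, fell from 319.7 ± 13.7 to 204 ± 1.73 FPKM (SD, n = 2). SOD1, the copper and zinc superoxide dismutase, fell by 0.35 on the log2 scale, and COX17 and COX11, which carry copper to cytochrome c oxidase, fell by 0.60 and 0.58. After scaling 0 of the 10 passed, and SOD1 stood at 0.14. The count was 2 without miR-NC replicate 2 and 1 without either miR-187 library, and ATOX1 was called each time. In the values as deposited MT2A rose, and none of the tested genes of these metal lists did, which is near the 1.49% called higher over all tested genes.

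Lists of other known inputs to the metallothionein genes were read in the same way. Of 6 tested genes of the glucocorticoid response, 0 were higher and 3 lower, with a median of -0.49, beside the 27.3% lower over all tested genes. TSC22D3, a direct target of the glucocorticoid receptor, fell from 20.1 ± 2.18 to 12.1 ± 0.727 FPKM (SD, n = 2). DUSP1, a phosphatase of the response, fell by 1.22 on the log2 scale. NFKBIA, the inhibitor of NF-kB, fell by 1.11. SGK1 was at -0.30 (adjusted p = 0.273). After median-of-ratios scaling DUSP1 was the 1 gene of this list that passed, at -0.85 (adjusted p = 0.0439). Of 3 tested transcription factors named at metallothionein promoters, 1 was lower, beside the same 27.3%. NFE2L2, the regulator of the response to oxidants, fell from 6.26 ± 1.12 to 2.97 ± 0.387 FPKM (SD, n = 2), and passed (limma, adjusted p = 0.0197). HIF1A, the hypoxia factor, was at -0.44 (adjusted p = 0.0524) and USF2 at -0.40 (adjusted p = 0.203). None of the 3 passed after scaling, and none without miR-NC replicate 2 or either miR-187 library. In the same fits the glucocorticoid count was 2, 1 and 2, with DUSP1 called in each.

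Of 9 protein-coding genes near the cluster, 6 were tested, 2 were called lower and 0 higher, a share of lower calls near the 27.3% over all tested genes. NLRC5, an activator of MHC class I genes, read 1.95 and 2.08 FPKM in the miR-NC libraries, against 0.412 and 0.478 FPKM in the miR-187 libraries. It fell by 1.06 ± 0.21 on the log2 scale (SE, adjusted p = 0.00398), and it also passed after median-of-ratios scaling (-0.82, adjusted p = 0.0389). NLRC5 met the filter of 1 FPKM through the miR-NC libraries alone, where it was high. It was therefore not in the fits that left out a miR-NC library. NUDT21, a factor that sets mRNA ends, was at -0.64 ± 0.21 (SE, adjusted p = 0.0364). It did not pass after that scaling, and its adjusted p was 0.0783 when miR-NC replicate 2 was dropped, and 0.273 and 0.216 when miR-187 replicate 1 or 2 was. BBS2, OGFOD1, NUP93 and HERPUD1 did not pass, at -0.21, -0.40, -0.13 and -0.23. GNAO1 and SLC12A3 were listed at 0, and CETP was at or below 0.246 FPKM.

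**Figure D5:**
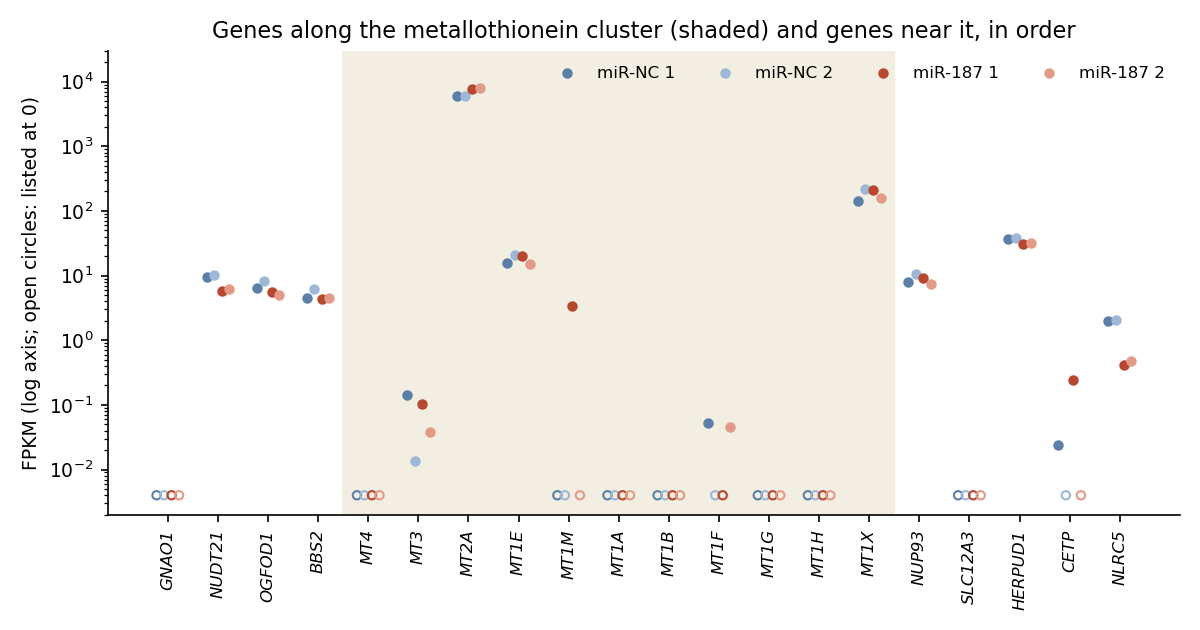
FPKM (log axis) in each library of protein-coding genes along chromosome 16, in gene order, with the metallothionein cluster shaded and open circles for genes listed at 0. Within the cluster only MT2A, MT1E, MT1X and, in 1 library, MT1M exceed 1 FPKM, and the flanking genes NUDT21 and NLRC5 are called lower with miR-187.

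The depth of the libraries is unknown. Genes at 1 FPKM or more numbered 8098 and 8868 in the miR-NC libraries, against 7290 and 7189 in the miR-187 libraries. Some markers of each parent of the hybrid line were present, and others were at or near 0. Of the 12 endothelial markers with values 8 reached the filter, and of the 6 epithelial markers 3 did. Of 8 tested endothelial markers 0 were higher and 5 lower, with a median of -0.63, beside 27.3% lower over all tested genes. CDH5 was among the 5, at -1.24 ± 0.24 (SE). ROBO4, also among them, read 1.98 and 2.31 FPKM in the miR-NC libraries, against 0.488 and 0.697 FPKM in the miR-187 libraries. It met the filter through the miR-NC libraries alone, where it was high. After median-of-ratios scaling 2 of the 8 markers were lower and their median was -0.19. The count of lower calls was 2 without miR-NC replicate 2 and 3 when miR-187 replicate 1 was dropped. The summed level of the list was 352 to 446 FPKM with miR-NC and 222 to 243 FPKM with miR-187. The defining marker VWF was near 0 in all 4 libraries, and PECAM1 was not analysed here. Of 3 tested epithelial markers none passed, with KRT18 at 0.05 ± 0.07 (SE). Markers of fibroblasts and smooth muscle, of blood cells, and of hepatocytes and proximal tubule, cells rich in metallothionein, summed to at most 0.624, 0.110 and 0.275 FPKM in any library. The part of the endothelial and composition shifts in the metallothionein values was not tested. In bulk RNA, a change in the share of cells that express a gene and a change in RNA per cell cannot be told apart.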

How the data were processed

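Gene expression was measured by paired-end mRNA sequencing in 4 libraries of EA.hy 926 cells, 2 with miR-NC and 2 with miR-187, grouped by their titles. The authors deposited 1 FPKM value per gene and library, and the submitters' notes name HISAT2, StringTie, DESeq2 and hg19, without versions. FPKM depends on the make-up of each library, so abundant transcripts that take a larger share lower all others. Low values did not resolve into whole reads, so depth is unknown and no counting interval is given. Of 62443 identifiers (49 copies of chromosome Y left out), 58611 matched a symbol.

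Values were analysed as log2(FPKM + 1), with a pseudocount of 1. A gene entered the test when 2 or more libraries reached 1 FPKM. The test was limma 3.58.1 (R 4.3.3, group as the sole term, intensity trend, two-sided). P-values were adjusted by Benjamini-Hochberg across the 8196 genes that entered, and 0.05 was the limit for a call. A gene said to have risen or fallen, or counted as higher or lower, passed. Fold changes on this scale understate those of low genes. The fit had 2 residual and 10.9 prior degrees of freedom, so its calls, that of MT2A included, rest mostly on the spread pooled over genes. Alternatives were TPM, median-of-ratios and quantile scaling, a pseudocount of 0.1, no filter, a filter of 5 FPKM, a replicate block and leaving out each library. A fit without a library has 1 library left in a group, and the replicate block also takes a residual degree of freedom. Calls in these fits, too, rest mostly on the spread pooled over genes.

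The members and lists were chosen with earlier results of these data known. Named genes were all members, family genes above 0.1 FPKM, in each list the up to 4 tested genes of lowest adjusted p and the most abundant one, up to 5 genes on each side of the cluster, and the 5 tested genes most like the summed metallothioneins. SLC30A1, VWF, MT1H, MT1B and MT4 were named outside this rule, after their values were seen. An item that the rule covers is not reported here. Sequences are from RefSeq (GRCh38.p14) and GENCODE 29, and no coordinate was converted from hg19. Sequence work and plots used Python 3.11.15, pandas 2.3.3, numpy 2.4.6 and matplotlib 3.10.9.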

Additional observations from a re-analysis of the deposited data

How the results depend on the processing

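The log2 fold change of MT2A was above 0 in every alternative run. Without each library in turn it was 0.33 to 0.39. It passed under TPM, a pseudocount of 0.1, a filter of 5 FPKM and the replicate block. It did not pass under median-of-ratios scaling (0.85), quantile normalization (0.29) or no filter (0.36), and each of these 3 left 0 members passing in place of 1. The ratio of the summed metallothioneins was 1.25 as TPM and 1.78 after median-of-ratios scaling, against 1.27, and 1.25 to 1.30 when libraries were left out. The calls over all genes numbered 2358 as deposited, 686 with median-of-ratios scaling, 612 with quantile normalization and 894 to 2838 when libraries were left out. Without a filter limma called 0 of 25001 genes, although 4189 had an unadjusted p under 0.05. The cause was not tested in any of these cases. MT1E reversed to 0.41 with median-of-ratios scaling, 0.35 with quantile normalization and 0.14 and 0.13 without miR-NC replicate 2 and miR-187 replicate 2. MT1X ran from -0.24 to 0.37 when libraries were left out and reversed to -0.24 and -0.14 without miR-NC replicate 1 and miR-187 replicate 1. MT2P1 lost its call without a filter and without 3 of the libraries. The deviations of the replicates numbered 1 had a correlation of -0.060 over genes between the groups. The labels do not say whether replicates were handled in pairs, and this value cannot show it. With the replicate block 2633 genes passed, MT2A among them. Its log2 fold change of 0.36 and SE of 0.07 were as in the main fit. The block leaves fewer residual degrees of freedom, so its calls are not stronger evidence. FPKM without counts, 2 libraries a group and closely similar copies limit what the low members can show.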

Other observations

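Outside the family, the tested genes whose profile over the 4 libraries was nearest to the summed metallothioneins were, in order of distance, CD2BP2-DT, CENPBD2P, RPL4, ENSG00000269028 and TPM3P6. The measure was the Euclidean distance of centred log2(FPKM + 1) values over 4 libraries, from 0.0417 to 0.0610, and it is a description. RPL4, a protein of the large ribosomal subunit, was the abundant gene among them, at 744 and 730 FPKM in the miR-NC libraries, against 901 and 937 FPKM in the miR-187 libraries. It was called higher (0.32 ± 0.09 SE, limma, adjusted p = 0.0178), a call lost when miR-NC replicate 2 (0.0703) or either of the miR-187 libraries (0.0533 and 0.135) was dropped. The other 4 had means from 0.646 to 4.33 FPKM in either group and did not pass. CENPBD2P and TPM3P6 are pseudogenes, which can share reads with their parents.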
